A study of Mus musculus with 9 samples.

Results

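The collagen gene family comprised the 44 genes, of 18738 in the table, whose symbol is Col, a number, a and a second number. They were measured in cardiomyocytes of newborn wild-type C57BL/6J mice, isolated at P0 from hearts of pups born to mothers on 1 of 3 diets. The mothers ate a normal diet (ND), the slight high-fat diet (sHFD) or the full high-fat diet (HFD) throughout gestation, after random assignment, and 3 RNA-seq libraries were made per diet. All pups thus share the strain, the genotype and the age, and the maternal diet is the variable. Nothing in the labels tells separate litters from pooled pups within a diet, so the p-values measure the spread between these libraries, which may be technical. Values are in TPM, a share of each library's transcripts that is scaled for transcript length and allows levels of different genes to be compared. The depth behind each value is unknown, because TPM does not keep it.

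Collagens are trimers of chains that carry long Gly-X-Y repeats, wound into a triple helix in the endoplasmic reticulum and secreted. Fibrillar collagens such as types I and III form the tensile fibrils of the interstitium, type IV forms the sheet-like network of basement membranes around each cardiomyocyte and capillary, and type VI forms beaded filaments between those layers. Types II, IX and XI build cartilage fibrils and also occur in the developing heart valves. In the heart, fibroblasts are the main source of fibrillar and type VI chains, and endothelial cells, mural cells and cardiomyocytes contribute to the basement membrane.

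The libraries held RNA of the labelled cell type and of others. Of the 12 cardiomyocyte markers, all were detected and together made up 2.55 to 4.48% of the TPM in ND, 4.47 to 6.08% in sHFD and 3.04 to 3.85% in HFD. The 16 fibroblast markers, led by Vim, Postn and Mgp, summed to 8513 to 11382 TPM in ND, 7554 to 8317 TPM in sHFD and 9431 to 10334 TPM in HFD. Fewer cells of a type and less RNA per cell cannot be told apart in such bulk libraries. ND replicate 1 stood nearer to the HFD libraries (mean Pearson correlation of log2 levels 0.980) than to the other ND libraries (0.962), and was the highest ND library for 25 of the 38 collagens tested (65.8%), against 34.4% of all genes. HFD replicate 3 was the highest HFD library for 35 of 38 (92.1%, against 61.1% of all genes), and sHFD replicate 2 the highest of its diet for 32 (84.2%, against 67.1%). Immediate-early and heat-shock genes, which rise within minutes of cell stress, summed to 4044 to 13243 TPM in ND, 4014 to 4360.3 TPM in sHFD and 10182 to 15171 TPM in HFD. The called members are therefore also given without ND replicate 1, without HFD replicate 3 and without both.

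Collagen transcripts made up 1.23 to 1.76% of the TPM in ND, 1.13 to 1.47% in sHFD and 1.35 to 1.51% in HFD. Their summed level was 14871 ± 2671 TPM in ND, 12482 ± 1956 TPM in sHFD and 14061 ± 891 TPM in HFD (SD, n = 3 each), and the 3 ranges overlapped. After the libraries were brought to a common median ratio the sums were 14467 ± 3178 TPM in ND, 11900.1 ± 905 TPM in sHFD and 15148 ± 358 TPM in HFD (SD, n = 3 each), so that HFD and not ND had the highest mean. The 5 most abundant chains, Col3a1, Col4a1, Col1a1, Col1a2 and Col4a2, held 73.1% of it. By class, fibrillar chains held 51.4%, basement membrane chains 34.6% and type VI chains 10.02%, while cartilage chains held 0.88%. Col3a1, the single chain of type III collagen, ranked 23rd among all genes by mean level.

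Of the 44 genes, 38 averaged 1 TPM or more over all diets and were tested. The 6 below were Col10a1, of hypertrophic cartilage, Col17a1, of the hemidesmosomes of skin, the fibril-associated Col19a1 and Col22a1, and the type VI chains Col6a4 and Col6a5. Their means ran from 0.0589 TPM for Col19a1 to 0.609 TPM for Col22a1, with Col6a4 at 0.0967 TPM, Col10a1 at 0.122 TPM, Col6a5 at 0.314 TPM and Col17a1 at 0.606 TPM. The lowest gene tested was Col4a3, a chain of specialised basement membranes such as that of the kidney glomerulus, at 1.57 TPM.

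**Figure D1:**
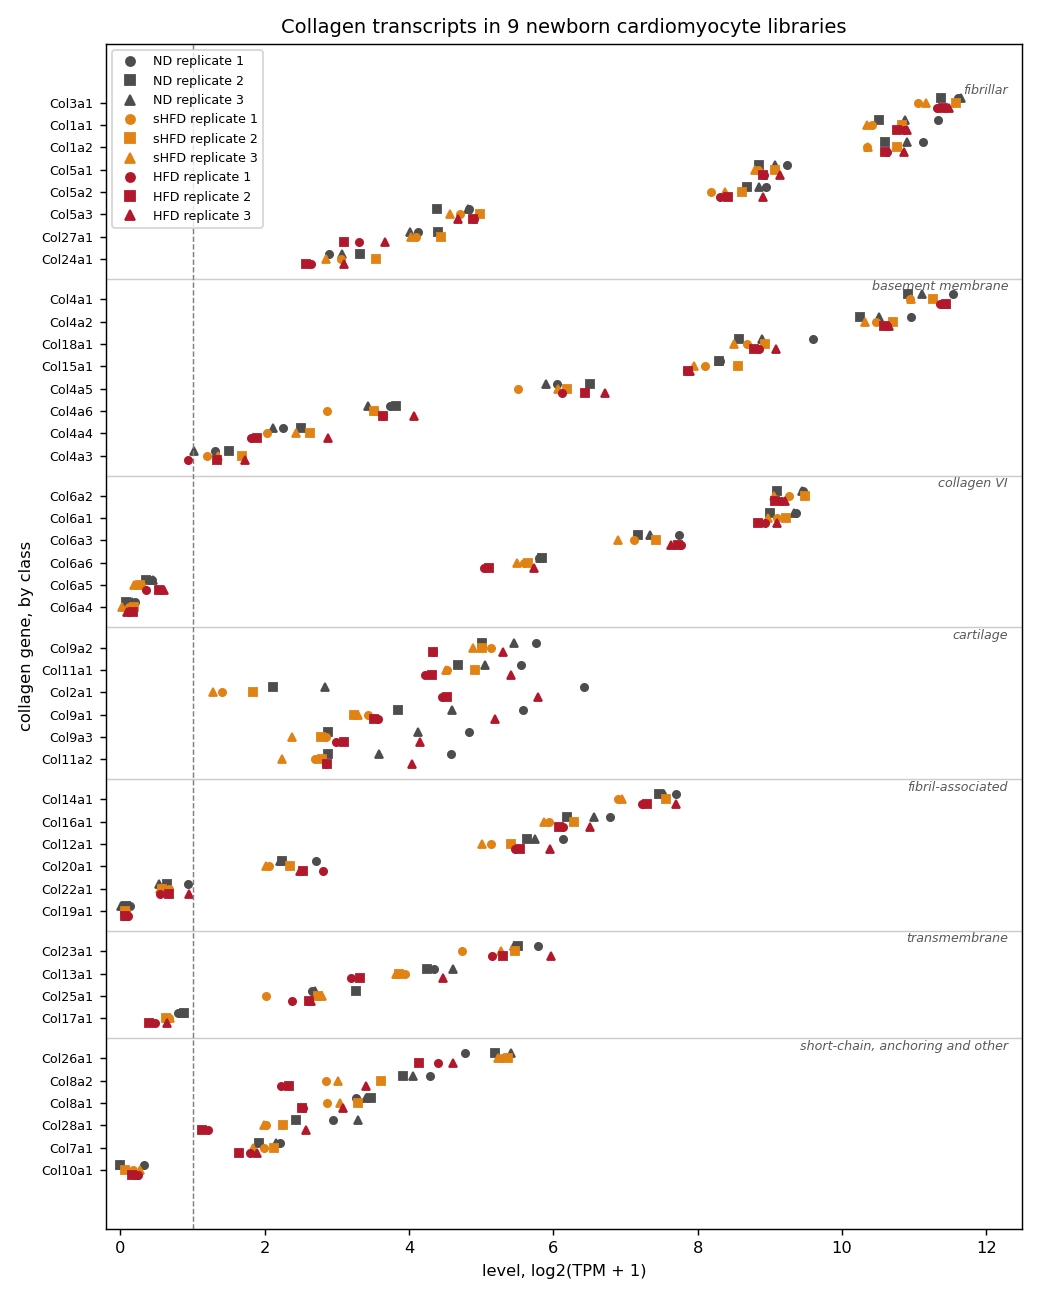
Level of each of the 44 collagen genes as log2(TPM + 1) on the x axis, 1 point per library, coloured by maternal diet and shaped by replicate, with the dashed line at 1 TPM. Col3a1, Col4a1, Col1a1, Col1a2 and Col4a2 lie at the right, and the 9 libraries of Col2a1 spread more widely than those of the other genes.

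Differences were tested with limma on log2(TPM + 1) over the 13655 genes that averaged 1 TPM or more, and a gene was called at a Benjamini-Hochberg adjusted p under 0.05. In HFD against ND, 4 of the 38 collagens fell (Col8a2, Col28a1, Col27a1 and Col26a1) and 0 rose, which is 10.5% of the collagens, where 10.9% of all genes tested were called (9.59% lower and 1.28% higher), so the share was close to the background. At an unadjusted p under 0.05 stood 9 of 38 (23.7%), against 29.8% of all genes. The median log2 difference was -0.23 over the collagens and -0.14 over all genes. In sHFD against ND, 0 of 38 were called by limma, where 0.00732% of all genes were. At an unadjusted p under 0.05 stood 10 (26.3%), against 7.36% of all genes. The median was -0.31, against 0.00 over all genes, and 32 of the 38 differences were negative. In HFD against sHFD, Col2a1 and Col6a3 rose and Col26a1 and Col27a1 fell, which is 10.5% of the collagens where 34.2% of all genes were called (10.3% higher and 23.9% lower). At an unadjusted p under 0.05 stood 7 (18.4%), against 45.6% of all genes. The median was 0.10 over the collagens and -0.16 over all genes. The comparisons share libraries and are not independent of each other.

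The number of calls depended on scaling and on single libraries. Under median-ratio scaling, in which the typical gene has the same level in all libraries, the medians over all genes moved to 0.01 in HFD against ND, -0.01 in sHFD against ND and -0.01 in HFD against sHFD. Collagen calls in HFD against sHFD then became 6 higher and 2 lower, with Col12a1, Col20a1, Col4a5 and Col4a6 added, while all genes went from 1406 higher and 3259 lower to 2608 higher and 2600 lower. In HFD against ND the collagen calls became 0 higher and 3 lower, while all genes went from 175 higher and 1309 lower to 642 higher and 997 lower. With 1 library left out, the 4 collagens called in HFD against ND became 9 without HFD replicate 3, 2 without ND replicate 2 or sHFD replicate 3, and 0 without ND replicate 3, HFD replicate 1 or HFD replicate 2. The 4 called in HFD against sHFD became 9 without HFD replicate 3 and 2 without HFD replicate 2. All genes called in that comparison went from 4665 to 3893 and 2693 in these fits, in that order. Without ND replicate 1 and HFD replicate 3, a choice made after seeing the data, 9 collagens fell and 1 rose in HFD against ND, and 8 fell and 2 rose in HFD against sHFD, each of 38. Of all 13650 genes tested in that fit, 3207 fell and 788 rose in HFD against ND. In HFD against sHFD, 3941 of them fell and 1360 rose.

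**Figure D2:**
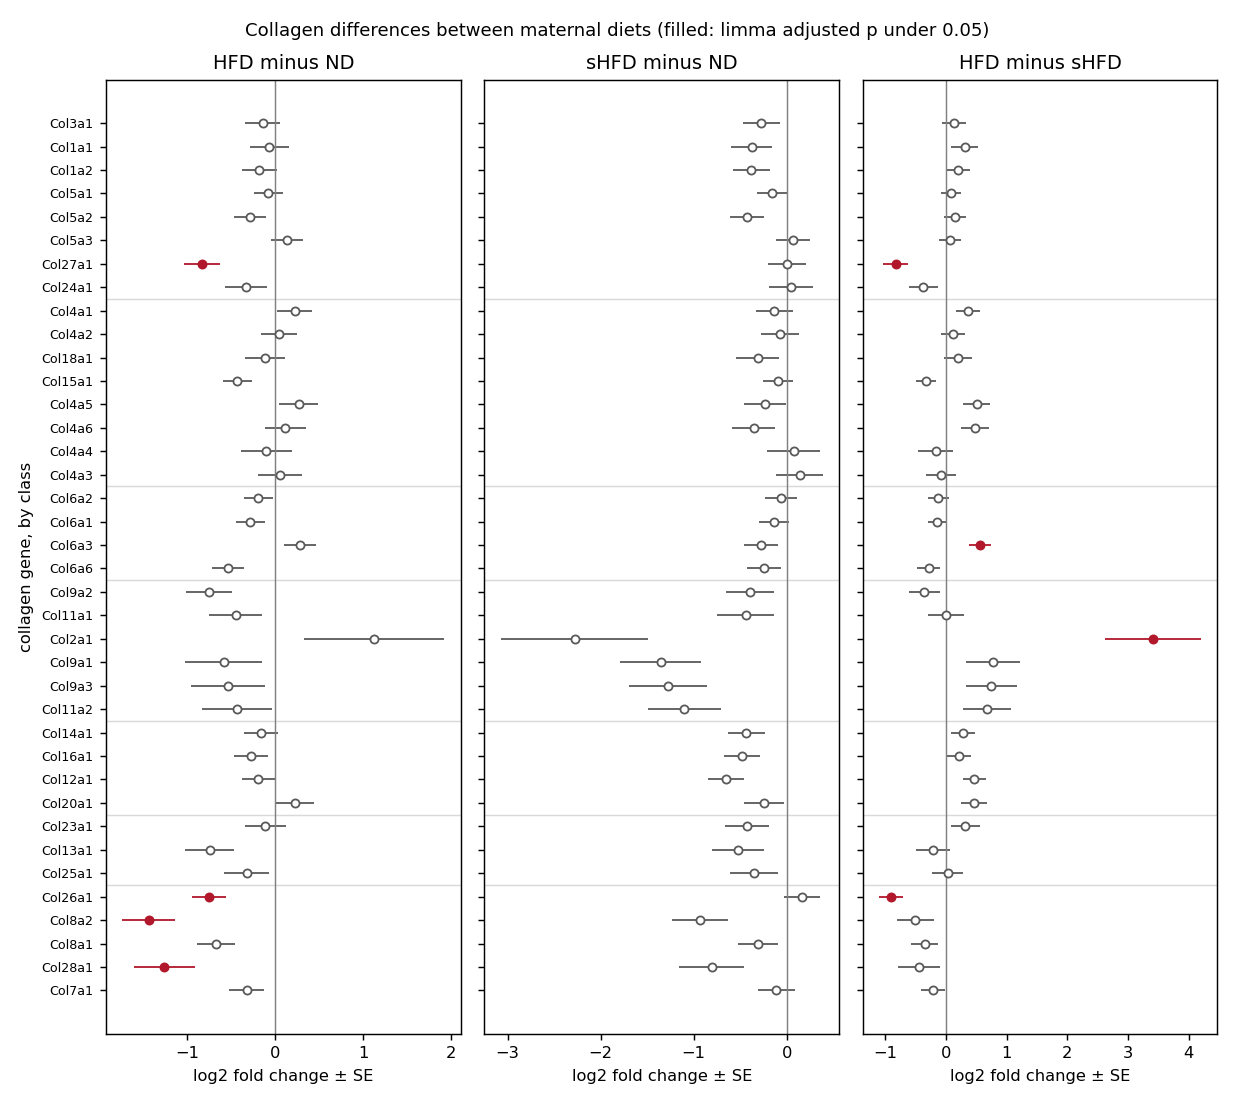
Log2 fold change on the log2(TPM + 1) scale with its SE for the 38 collagens tested, by class, in the 3 comparisons of maternal diets, each panel on its own x scale. Filled points passed limma's test at an adjusted p under 0.05: 4 in HFD minus ND, 0 in sHFD minus ND and 4 in HFD minus sHFD.

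Among the fibrillar chains, types I, III and V did not pass in any comparison, and Col27a1, a fibrillar chain of developing cartilage and other tissues, was lower in HFD than under both other diets. Col3a1 (entrez 12825, chromosome 1, 45311538 to 45349706, plus strand) measured 3123, 2638 and 3194 TPM under ND, 2120.0, 3060.3 and 2295 TPM under sHFD and 2553, 2699.7 and 2858 TPM under HFD. Positions here and below are RefSeq gene spans on GRCm38.p6. The 3 diets overlapped, and the log2 difference was -0.14 in HFD against ND (limma adjusted p = 0.671) and -0.27 in sHFD against ND (adjusted p = 0.723). Col1a1, the major chain of type I collagen (chromosome 11, 94936224 to 94953042, plus strand), was 2569.8, 1456 and 1872 TPM under ND, 1359, 1813 and 1299 TPM under sHFD and 1851, 1727 and 1909 TPM under HFD. Here ND replicate 1 was the highest of the 9 libraries and the other ND libraries lay within the range of the high-fat groups (HFD against ND log2 -0.07, SE 0.22, limma adjusted p = 0.874). Its partner Col1a2 measured 2218, 1551 and 1907 TPM under ND, 1298, 1742 and 1318 TPM under sHFD and 1569, 1549.6 and 1864 TPM under HFD (HFD against ND adjusted p = 0.577). Of the type V chains, which nucleate type I fibrils, Col5a1 was 535 ± 71.3 TPM in ND, 478 ± 50.4 TPM in sHFD and 507 ± 47.6 TPM in HFD, and Col5a2 was 453 ± 41.8 TPM, 338 ± 50.4 TPM and 378 ± 86.3 TPM (SD, n = 3 each). All 3 sHFD libraries of Col5a2 lay below all 3 ND libraries, as for 4.9% of all genes tested, but the difference was not called (limma adjusted p = 0.672). The less abundant Col5a3 and Col24a1 had log2 differences of 0.14 and -0.33 in HFD against ND, with overlapping libraries.

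Col27a1 (entrez 373864, chromosome 4, 63214009 to 63334991, plus strand) was 16.4, 20.2 and 15.2 TPM under ND, 16.0, 20.7 and 15.4 TPM under sHFD and 8.86, 7.59 and 11.6 TPM under HFD. The HFD libraries lay below the other 6, at a level 1.77-fold lower than ND on the log2(TPM + 1) scale (log2 -0.83, SE 0.21, limma adjusted p = 0.0271) and 1.78-fold lower than sHFD (log2 -0.83, SE 0.21, limma adjusted p = 0.0097). Non-overlap in that direction was found for 22.9% of all genes in HFD against ND and for 34.7% in HFD against sHFD. The call against ND was lost with no filter on low values (adjusted p = 0.0541) and when ND and HFD were fitted alone (0.0606). It was also lost without ND replicate 2 (adjusted p = 0.0795), ND replicate 3 (0.0829), HFD replicate 1 (0.093) or HFD replicate 2 (0.138), and the call against sHFD without HFD replicate 2 (0.0536). For Col27a1 the log2 difference from ND was -0.86 (adjusted p = 0.0151) without ND replicate 1, -0.98 (adjusted p = 0.017) without HFD replicate 3 and -1.01 (adjusted p = 0.00703) without both. That from sHFD was -0.83 (adjusted p = 0.00643) without ND replicate 1, -0.98 (adjusted p = 0.00786) without HFD replicate 3 and -0.98 (adjusted p = 0.00326) without both.

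The bases before the RefSeq start site are shown for 3 members: Col3a1, the most abundant chain, which was called in no comparison, and Col27a1 and Col28a1, which fell in HFD. Each stretch is the 150 bases before the start on GRCm38.p6, 5′ to 3′ on the gene's own strand, and capitals mark the TATA box letters TATAAA, the GC box letters GGGCGG or the CCAAT box, on either strand. The Col27a1 and Col28a1 stretches lie inside the longer span that RefSeq gives for each gene, and no GENCODE exon overlaps any of the 3.
Col3a1 (chr1:45311388-45311537, plus strand): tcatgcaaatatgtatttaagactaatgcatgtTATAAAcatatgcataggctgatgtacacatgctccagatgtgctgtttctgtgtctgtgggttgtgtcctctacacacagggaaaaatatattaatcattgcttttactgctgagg
Col27a1 (chr4:63215262-63215411, plus strand): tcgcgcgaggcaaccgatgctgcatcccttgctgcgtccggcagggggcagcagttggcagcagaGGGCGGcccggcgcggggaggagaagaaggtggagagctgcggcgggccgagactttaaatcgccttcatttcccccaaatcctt
Col28a1 (chr6:8192618-8192767, minus strand): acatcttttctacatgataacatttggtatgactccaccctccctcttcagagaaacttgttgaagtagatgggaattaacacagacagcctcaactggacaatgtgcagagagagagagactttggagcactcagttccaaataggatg
Col3a1 has a TATAAA match that begins 117 bases before the start, Col27a1 a GGGCGG match that begins 85 bases before it, and Col28a1 has none of the 3 motifs in these letters. RefSeq promoter entries matched 35 of the 44 collagens, in 38 windows. In the 250 bases before the start, GGGCGG on either strand occurred in 57.9% of the collagen windows and 32.7% of all 32851 windows, CCAAT in 34.2% and 33.8%, and TATAAA in 13.2% and 12.4%. No motif is contained in another, and the counts are a description of letters.

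In the basement membrane class, 0 of 8 genes were called by limma in any of the 3 comparisons, against 1 at an unadjusted p under 0.05 in HFD against ND, 0 in sHFD against ND and 1 in HFD against sHFD. Of all genes, 10.9%, 0.00732% and 34.2% were called in these comparisons, in that order. At an unadjusted p under 0.05 stood 29.8%, 7.36% and 45.6% of all genes. Col4a1 (entrez 12826, chromosome 8, 11198423 to 11312889, minus strand), whose product joins with that of Col4a2 in the ubiquitous type IV trimer, measured 2962, 1933 and 2196 TPM under ND, 1958, 2446 and 1992 TPM under sHFD and 2618, 2766 and 2770.2 TPM under HFD. The HFD libraries all exceeded the sHFD libraries, as did 16.6% of all genes tested, but ND replicate 1 was higher still (HFD against sHFD log2 0.36, SE 0.20, limma adjusted p = 0.182). Col4a2 (chromosome 8, 11312805 to 11449287, plus strand) was 1987, 1213 and 1455 TPM under ND, 1422, 1674 and 1272 TPM under sHFD and 1569, 1537 and 1607 TPM under HFD, with the diets overlapping. Col4a1 and Col4a2 stand head to head on chromosome 8, and the GENCODE models overlap by 22 bases at their 5′ ends, and the RefSeq spans by 85, where unstranded reads could not be assigned to one of them. The other type IV genes are also head-to-head pairs, Col4a3 with Col4a4 on chromosome 1, whose RefSeq spans overlap by 114 bases, and Col4a5 with Col4a6, 1274 bases apart, on chromosome X. Col4a3 was 1.44 ± 0.406 TPM, 1.69 ± 0.480 TPM and 1.58 ± 0.702 TPM under ND, sHFD and HFD, and Col4a4 3.92 ± 0.674 TPM, 4.22 ± 1.06 TPM and 3.86 ± 2.16 TPM (SD, n = 3 each). Col4a5 was 65.5, 89.6 and 58.9 TPM under ND, 44.6, 72.0 and 65.6 TPM under sHFD and 68.5, 85.8 and 104 TPM under HFD, and Col4a6 was 11.7 ± 1.71 TPM, 9.12 ± 2.47 TPM and 12.9 ± 2.47 TPM (SD, n = 3 each). In both, the sHFD mean was the lowest and the HFD mean the highest, and HFD against sHFD gave 0.51 (limma adjusted p = 0.0921) for Col4a5 and 0.47 (adjusted p = 0.127) for Col4a6. Both were called after median-ratio scaling (adjusted p = 0.0124 and 0.0227).

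Col15a1 and Col18a1 encode the multiplexins, which link basement membranes to the interstitium. Col15a1 was 317, 312 and 313 TPM under ND, 273, 378 and 247 TPM under sHFD and 229.6, 233 and 236 TPM under HFD. Its ND and HFD libraries were each tightly grouped and did not overlap, as for 22.9% of all genes in the lower direction, but the difference was not called (HFD against ND log2 -0.43, SE 0.16, limma adjusted p = 0.103). Col18a1, the source of endostatin, was 771, 379 and 472 TPM under ND, 409, 488 and 361 TPM under sHFD and 461, 439.6 and 541 TPM under HFD. ND replicate 1 was the highest of the 9 libraries and the rest overlapped between diets (HFD against ND adjusted p = 0.786).

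Among the type VI genes, Col6a3 rose in HFD against sHFD, where 10.3% of all genes rose, and the other 3 tested were not called. Col6a3 (entrez 12835, chromosome 1, 90766860 to 90844001, minus strand), the long chain that completes the type VI trimer, was 214, 143 and 161 TPM under ND, 138, 171 and 118 TPM under sHFD and 217, 210.4 and 197 TPM under HFD. The HFD libraries lay above all sHFD libraries (16.6% of all genes did so) and ND replicate 1 lay among them. The change was 1.48-fold against sHFD (log2 0.56, SE 0.18, limma adjusted p = 0.03) and was not called against ND (log2 0.29, SE 0.18, limma adjusted p = 0.302). It was lost without sHFD replicate 1 (adjusted p = 0.0812), sHFD replicate 3 (0.131), HFD replicate 1 (0.0792) or HFD replicate 2 (0.087). The log2 difference of Col6a3 from sHFD was 0.56 (adjusted p = 0.0127) without ND replicate 1, 0.60 (adjusted p = 0.0459) without HFD replicate 3 and 0.60 (adjusted p = 0.016) without both.

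Col6a1 and Col6a2, the other chains of that trimer, had negative log2 differences from ND in HFD. Col6a1 was 658, 510.4 and 643 TPM under ND, 546, 597 and 499.9 TPM under sHFD and 485, 455 and 549 TPM under HFD, and Col6a2 was 704, 545 and 693 TPM under ND, 615, 719 and 530.5 TPM under sHFD and 570.0, 535 and 591 TPM under HFD. In both, the HFD range overlapped with that of ND and reached lower, with log2 differences from ND of -0.28 and -0.19 (limma adjusted p = 0.269 and 0.485). Col6a6, a chain that can stand in for Col6a3, was 54.7, 56.1 and 55.5 TPM under ND, 47.3, 49.1 and 44.0 TPM under sHFD and 31.9, 33.4 and 51.9 TPM under HFD. All HFD libraries lay below all ND libraries, as for 22.9% of genes, without a call (log2 -0.53, SE 0.18, limma adjusted p = 0.077), and it passed without HFD replicate 3 (adjusted p = 0.0131).

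Ratios of chains within a library do not depend on its scaling, and of 9 computed, 2 placed the HFD libraries above the other 6. Col3a1 and Col1a1 belong to different trimers, and the other ratios are of chains that assemble together. Those planned were Col1a1 to Col1a2, Col4a1 to Col4a2, Col5a1 to Col5a2 and Col6a1 to Col6a2, and the rest were added. Col4a1 to Col4a2 was 1.49, 1.59 and 1.51 in ND, 1.38, 1.46 and 1.57 in sHFD and 1.67, 1.80 and 1.72 in HFD. Col6a3 to Col6a1, a ratio added after its values were seen, was 0.325, 0.281 and 0.250 in ND, 0.253, 0.286 and 0.235 in sHFD and 0.447, 0.462 and 0.359 in HFD, again without overlap. Col1a1 to Col1a2 was 1.16, 0.939 and 0.982 in ND, 1.05, 1.04 and 0.985 in sHFD and 1.18, 1.11 and 1.02 in HFD, and the diets overlapped. Col6a1 to Col6a2 was 0.935, 0.937 and 0.929 in ND, 0.887, 0.830 and 0.942 in sHFD and 0.852, 0.851 and 0.929 in HFD, where HFD replicate 3 came next to the lowest ND library. Col5a1 to Col5a2 was 1.23, 1.13 and 1.17 in ND and 1.57, 1.37 and 1.33 in sHFD, without overlap, and 1.53, 1.39 and 1.18 in HFD. Col9a1 to Col9a2 was 0.880, 0.429 and 0.542 in ND, 0.287, 0.270 and 0.305 in sHFD and 0.570, 0.545 and 0.920 in HFD, with sHFD below both other diets. For Col3a1 to Col1a1, Col4a5 to Col4a6 and Col4a4 to Col4a3 the diets overlapped. No test was run on these ratios.

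**Figure D3:**
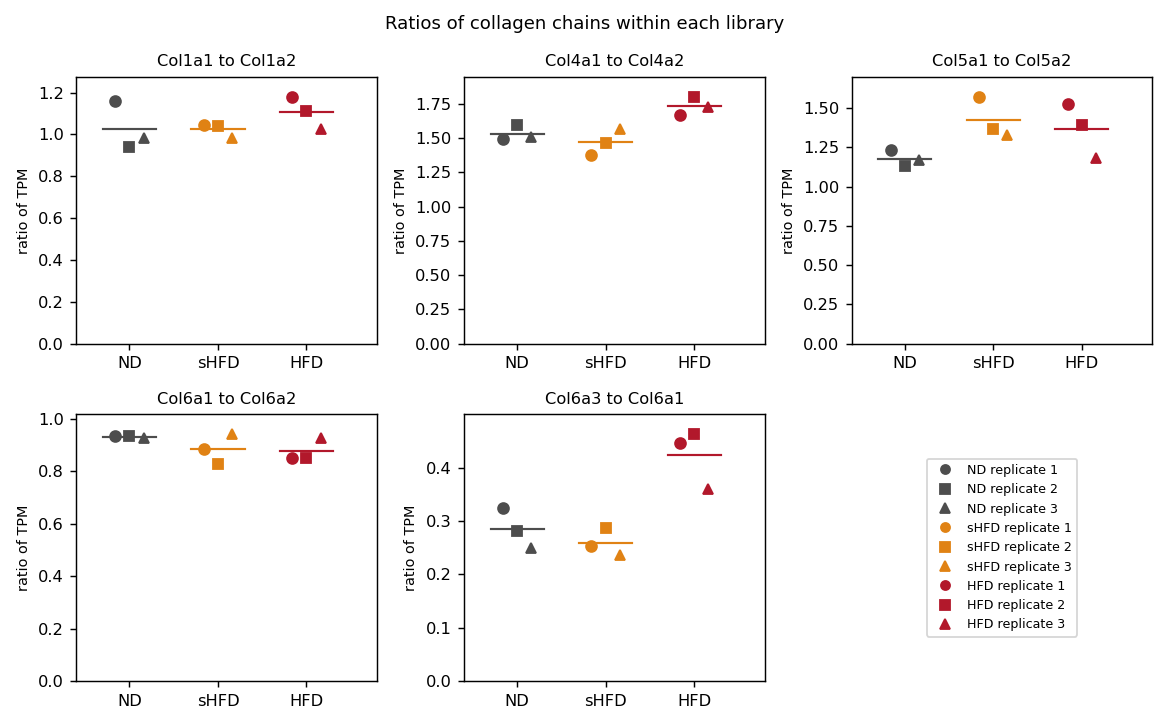
Ratio of TPM between chains of one trimer in each library, by maternal diet, with the mean of each diet as a bar. The HFD libraries lie above the other 6 for Col4a1 to Col4a2 and for Col6a3 to Col6a1, and the diets overlap for Col1a1 to Col1a2.

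The cartilage collagens were uneven between libraries of one diet, and 1 of the 6, Col2a1, was called, in HFD against sHFD, where 34.2% of all genes were. Col2a1 (entrez 12824, chromosome 15, 97975602 to 98004724, minus strand), the chain of type II collagen, was 84.9, 3.31 and 6.16 TPM under ND, 1.66, 2.56 and 1.44 TPM under sHFD and 20.9, 21.9 and 54.4 TPM under HFD. The 3 sHFD libraries were the lowest of the 9, the HFD libraries were all above them, and ND replicate 1 was the highest library of all while the other ND libraries were near sHFD. Col2a1 rose in HFD against sHFD (from 1.89 ± 0.593 TPM to 32.4 ± 19.1 TPM, SD, n = 3 each, log2 3.41, SE 0.79, limma adjusted p = 0.00705), a call kept in each of the 9 fits with 1 library left out (adjusted p up to 0.0298). Against ND the means were nearly equal (31.4 ± 46.3 TPM in ND) and the difference was not called (log2 1.13, SE 0.79, limma adjusted p = 0.36). Against sHFD the log2 difference was 3.41 (adjusted p = 3.9e-05) without ND replicate 1, 2.97 (adjusted p = 0.0298) without HFD replicate 3 and 2.97 (adjusted p = 5.98e-05) without both. Against ND, without ND replicate 1, it was 2.45 and was called (adjusted p = 0.00114), and without HFD replicate 3 it was 0.69 (adjusted p = 0.651).

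Col2a1, Col9a1, Col9a3 and Col11a2, 4 of the 6 cartilage chains, had all HFD libraries above all sHFD libraries, as did 16.6% of all genes tested. In Col9a2 and Col11a1, HFD replicates 1 and 2 lay below the sHFD libraries. Col9a1, of the type IX collagen that coats type II fibrils, was 46.7, 13.4 and 23.2 TPM under ND, 9.81, 8.40 and 8.76 TPM under sHFD and 10.9, 10.4 and 35.4 TPM under HFD. ND replicate 1 and HFD replicate 3 were the highest, and HFD replicates 1 and 2 lay just above sHFD (HFD against sHFD log2 0.77, limma adjusted p = 0.187). Col9a3 was 27.4, 6.32 and 16.4 TPM under ND, 6.17, 5.87 and 4.19 TPM under sHFD and 6.92, 7.57 and 16.9 TPM under HFD, and Col11a2, of the type XI collagen at the core of cartilage fibrils, was 22.8, 6.36 and 10.9 TPM under ND, 5.51, 5.93 and 3.73 TPM under sHFD and 6.23, 6.30 and 15.4 TPM under HFD, with ND replicate 1 highest in both. Neither was called in HFD against sHFD (limma adjusted p = 0.182 and 0.203). Col9a2 was 53.1, 31.2 and 42.8 TPM under ND, 34.2, 31.1 and 28.7 TPM under sHFD and 19.1, 19.1 and 38.5 TPM under HFD and Col11a1 46.0, 24.5 and 32.2 TPM under ND, 22.1, 29.0 and 21.9 TPM under sHFD and 17.6, 18.9 and 41.7 TPM under HFD. For Col9a2 and Col11a1, HFD replicates 1 and 2 were the lowest of the 9 libraries, and both genes fell against ND without HFD replicate 3 (adjusted p = 0.0127 and 0.0487) but were not called with all 9 (adjusted p = 0.077 and 0.341). In sHFD against ND, 4 of the 6 cartilage collagens lay below all ND libraries, where 4.9% of all genes did. With all libraries Col2a1, Col9a1, Col9a3 and Col11a2 were not called (limma adjusted p = 0.672, 0.670, 0.670 and 0.672). They were called as lower without ND replicate 2, the lowest ND library for each (adjusted p = 0.0374, 0.0413, 0.017 and 0.0473). In that fit 138 of all 13635 genes tested were called as lower, against 1 with all libraries.

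Some markers of cartilage and airway were highest in the same libraries. The 12 cartilage markers other than collagens summed to 224, 108 and 153 TPM in the ND libraries, 87.5, 104 and 78.4 TPM in sHFD and 67.4, 65.0 and 137 TPM in HFD, with ND replicate 1 and HFD replicate 3 the highest of their diets. In HFD against sHFD 0 of the 9 tested were called by limma, where 34.2% of all genes were. At an unadjusted p under 0.05 stood 0, against 45.6% of all genes. In HFD against ND 3 fell, Matn4, Comp and Epyc, where 9.59% of all genes fell. All 9 differences from ND were negative in HFD, while in HFD against sHFD 5 were positive and 4 negative. Snorc, a chondrocyte proteoglycan, was 3.39, 0 and 0 TPM under ND, 0, 0 and 0 TPM under sHFD and 0.28, 0.77 and 1.62 TPM under HFD. Matn1, a cartilage matrilin, was likewise at 0 in the sHFD libraries and in ND replicates 2 and 3, and at 0.71 TPM in ND replicate 1 and 0.07, 0.39 and 0.33 TPM in HFD. Snorc and Matn1 averaged below 1 TPM over all diets and were not tested. Acan, the main cartilage proteoglycan, was detected in all 9 libraries, at 10.5 to 18.0 TPM in sHFD and 9.95 to 23.9 TPM in HFD. Scgb1a1, a secretory protein of airway club cells, was 0 in all sHFD libraries, 3.30, 0 and 0 TPM in ND and 0.67, 0.46 and 17.2 TPM in HFD, and the 10 airway markers summed to 28.6 to 36.8 TPM in ND, 24.1 to 42.6 TPM in sHFD and 43.4 to 69.1 TPM in HFD. Of the 5 airway markers tested, Cdh1 rose in HFD against both other diets. All 19 immediate-early and heat-shock genes were higher in every HFD library than in every sHFD library, as were 16.6% of all genes tested. The part of other tissue or of cell stress in the Col2a1 difference was not tested.

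**Figure D4:**
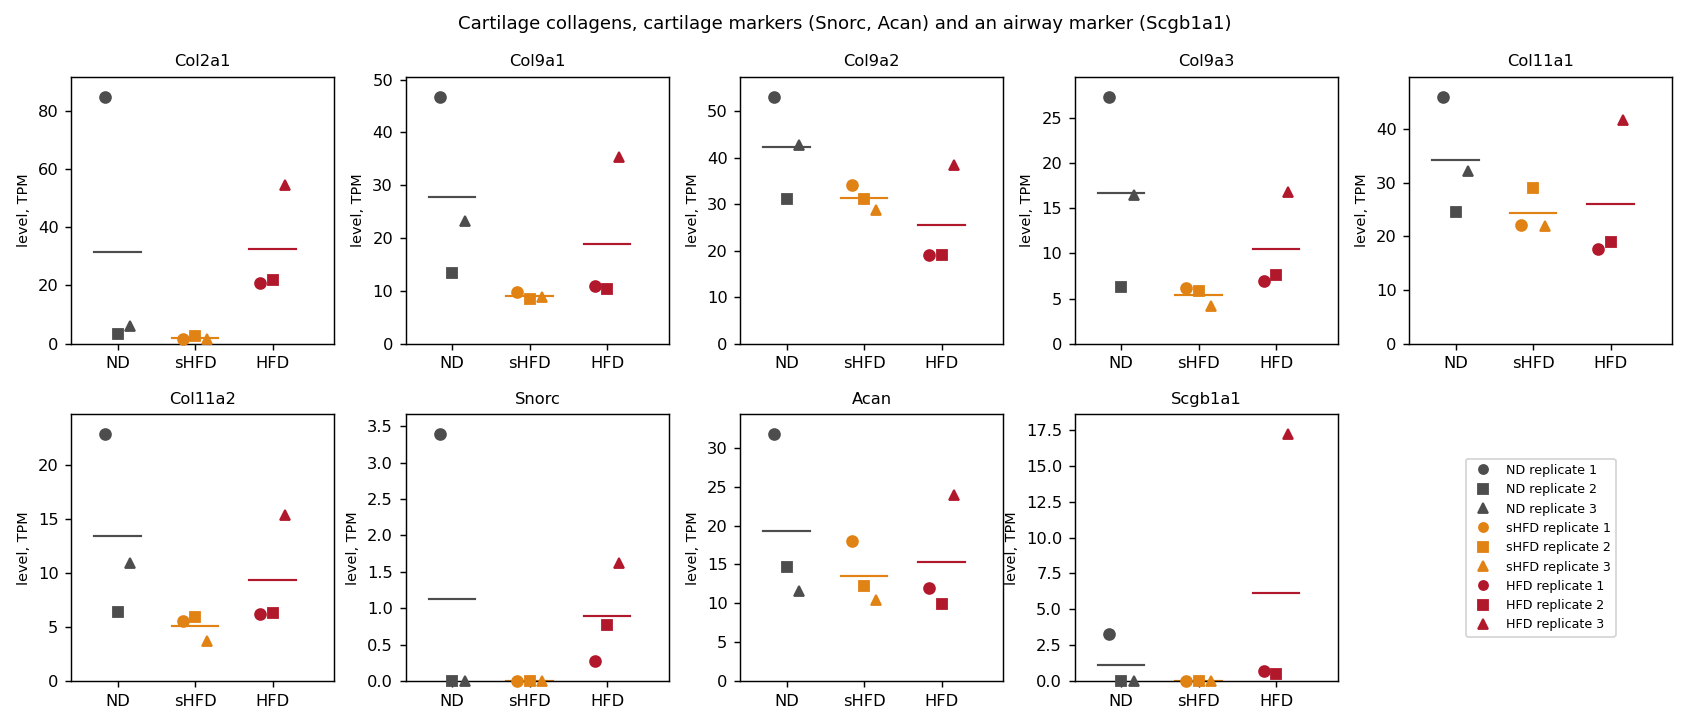
Level in TPM of the 6 cartilage collagens, the cartilage genes Snorc and Acan and the airway gene Scgb1a1 in each library, by maternal diet, with the mean of each diet as a bar. ND replicate 1 and HFD replicate 3 are the highest of their diets in each of the 6 collagens, and Col2a1 is also raised over sHFD in HFD replicates 1 and 2, at 20.9 and 21.9 TPM.

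The 2 largest falls, of Col8a2 and Col28a1, were among the short-chain, anchoring and other collagens, where 3 of the 5 tested fell in HFD against ND, where 9.59% of all genes fell. The class median was -0.74, against -0.14 over all genes. This class gathers the members left over from the other classes, so its share and median do not describe a single type of collagen. Col8a2 (entrez 329941, chromosome 4, 126286794 to 126314330, plus strand), a short-chain collagen that forms hexagonal lattices in vessel walls and the cornea, was 18.5, 14.1 and 15.6 TPM under ND, 6.23, 11.2 and 7.09 TPM under sHFD and 3.68, 4.04 and 9.56 TPM under HFD. HFD and sHFD libraries lay below all ND libraries, with HFD replicates 1 and 2 the lowest. Col8a2 fell 2.70-fold in HFD against ND (log2 -1.43, SE 0.30, limma adjusted p = 0.0149) and had a log2 difference of -0.93 in sHFD against ND (adjusted p = 0.67). The call was lost without ND replicate 3 (adjusted p = 0.074), HFD replicate 1 (0.0707) or HFD replicate 2 (0.0849). Its log2 difference in HFD against ND was -1.33 (adjusted p = 0.0115) without ND replicate 1, -1.81 (adjusted p = 0.0041) without HFD replicate 3 and -1.71 (adjusted p = 0.00129) without both. Its partner Col8a1 was 8.58, 10.1 and 9.62 TPM under ND, 6.27, 8.79 and 7.26 TPM under sHFD and 4.77, 4.74 and 7.50 TPM under HFD. Those HFD libraries also lay below all ND libraries, without a call (log2 -0.67, SE 0.22, limma adjusted p = 0.0629), and the gene passed without ND replicate 1 (adjusted p = 0.0346) or HFD replicate 3 (0.0272).

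Col28a1 (entrez 213945, chromosome 6, 7997100 to 8193709, minus strand), a collagen with von Willebrand A domains known from peripheral nerve, was 6.69, 4.40 and 8.83 TPM under ND, 3.04, 3.77 and 2.96 TPM under sHFD and 1.31, 1.19 and 4.94 TPM under HFD. HFD replicate 3 overlapped with ND replicate 2, and the other HFD libraries were the lowest of the 9 (log2 -1.25, SE 0.35, limma adjusted p = 0.0374). The call was lost without ND replicate 3 (adjusted p = 0.16), with no filter on low values (0.0836), without any one sHFD library (0.0529, 0.0534 and 0.0598), without HFD replicate 1 (0.13) or HFD replicate 2 (0.165), under quantile normalization (0.0923), and when ND and HFD were fitted alone (0.0831). The log2 difference of Col28a1 was -1.23 (adjusted p = 0.0329) without ND replicate 1, -1.72 (adjusted p = 0.00564) without HFD replicate 3 and -1.70 (adjusted p = 0.00209) without both.

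Col26a1 (entrez 140709, chromosome 5, 136741759 to 136883376, minus strand), a short-triple-helix protein first described in testis and ovary, was 26.3, 35.6 and 41.6 TPM under ND, 37.9, 40.3 and 36.4 TPM under sHFD and 20.1, 16.5 and 23.5 TPM under HFD. The HFD libraries were the lowest 3 of the 9, and ND replicate 1 was the nearest to them. Col26a1 fell 1.88-fold against sHFD (log2 -0.91, SE 0.19, limma adjusted p = 0.00473), a call kept in each fit with 1 library left out. It also fell against ND (log2 -0.74, SE 0.19, limma adjusted p = 0.0311), but this call was lost under median-ratio scaling (adjusted p = 0.0524) and quantile normalization (0.0638), with no filter on low values (0.0552) and when ND and HFD were fitted alone (0.0776). It was also lost without ND replicate 2 (0.0774), ND replicate 3 (0.152), sHFD replicate 3 (0.0536), HFD replicate 1 (0.0917) or HFD replicate 2 (0.15). Against ND, Col26a1 differed by log2 -0.92 (adjusted p = 0.00377) without ND replicate 1, -0.86 (adjusted p = 0.024) without HFD replicate 3 and -1.04 (adjusted p = 0.00209) without both. Against sHFD it differed by -0.91 (adjusted p = 0.00109) without ND replicate 1, -1.02 (adjusted p = 0.00605) without HFD replicate 3 and -1.02 (adjusted p = 0.000749) without both. Col7a1, of the anchoring fibrils of skin, was 3.29 ± 0.437 TPM in ND, against 2.44 ± 0.301 TPM in HFD (SD, n = 3 each, limma adjusted p = 0.3).

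**Figure D5:**
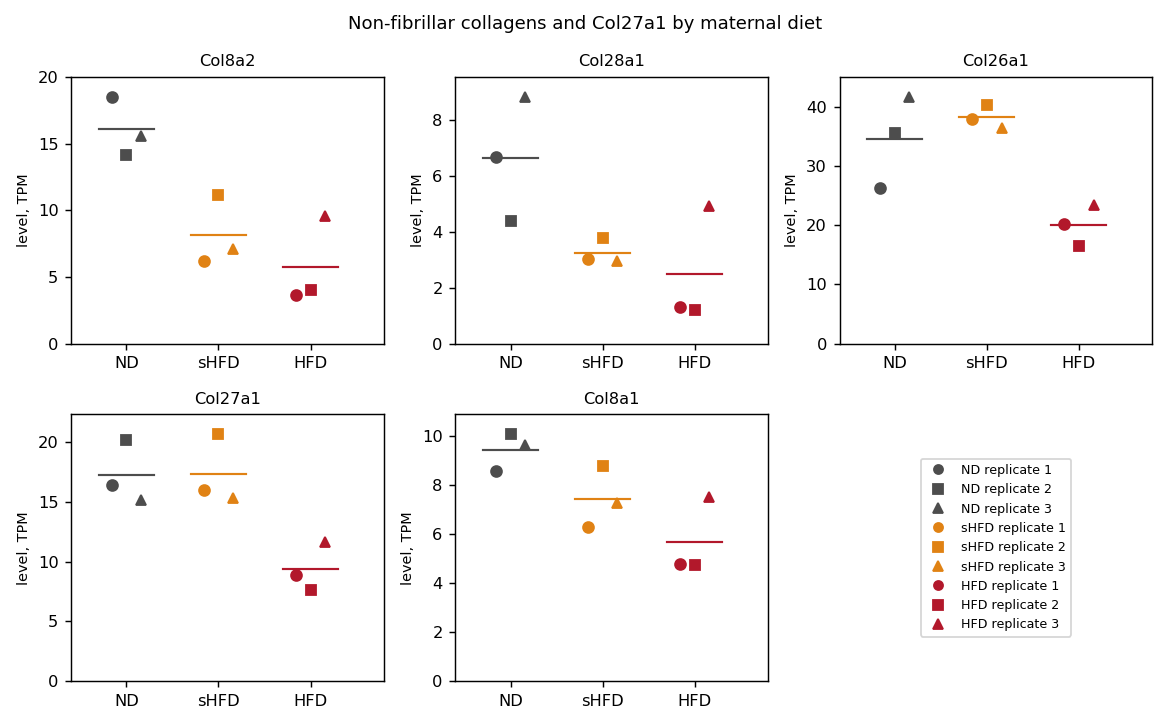
Level in TPM of Col8a2, Col28a1, Col26a1, Col27a1 and Col8a1 in each library, by maternal diet, with the mean of each diet as a bar. HFD replicates 1 and 2 are the lowest of the 9 libraries in Col8a2, Col28a1, Col27a1 and Col8a1, and HFD replicate 3 is the highest HFD library in all 5.

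Markers of other cell types were called in the same contrast. Of the 12 immune cell markers, 11 fell and 0 rose in HFD against ND, where 9.59% of all genes fell and 1.28% rose, and their sum ran over 466 to 651 TPM in ND, against 252 to 292 TPM in HFD. Of the 11 mural cell markers, 4 fell (Pdgfrb, Rgs5, Cspg4 and Kcnj8) and Cnn1 rose, with sums of 1764 to 2006 and 1969.8 to 2228 TPM. Of the 16 fibroblast markers 0 were called by limma in HFD against ND, where 10.9% of all genes were. At an unadjusted p under 0.05 stood 3 of the 16, against 29.8% of all genes. The list median was -0.18, against -0.14 over all genes. The part of these cells in the collagen differences was not tested.

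The fibril-associated collagens bind the surface of fibrils, and 0 of the 4 tested were called by limma in any comparison, against 0, 3 and 2 at an unadjusted p under 0.05 in HFD against ND, sHFD against ND and HFD against sHFD. Of all genes, 10.9%, 0.00732% and 34.2% were called in these comparisons, in that order. At an unadjusted p under 0.05 stood 29.8%, 7.36% and 45.6% of all genes. Col14a1, the most abundant of the class, was 207, 175 and 184 TPM under ND, 118, 187 and 122 TPM under sHFD and 148, 157 and 207 TPM under HFD, and sHFD replicates 1 and 3 were the lowest. Col12a1 was 69.2, 48.6 and 52.9 TPM under ND, 34.3, 41.5 and 31.1 TPM under sHFD and 43.2, 45.5 and 60.9 TPM under HFD. Its sHFD libraries lay below all 6 others, with a log2 difference of -0.65 from ND (limma adjusted p = 0.67) and of 0.47 between HFD and sHFD (adjusted p = 0.0743), the last called after median-ratio scaling (adjusted p = 0.0139). Col16a1 was 91.7 ± 18.8 TPM in ND, 64.9 ± 10.5 TPM in sHFD and 75.5 ± 12.9 TPM in HFD, and Col20a1 4.28 ± 1.09 TPM, 3.43 ± 0.563 TPM and 5.12 ± 0.739 TPM (SD, n = 3 each).

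The transmembrane collagens, which are held in the plasma membrane and can be shed, also had 0 of 3 called by limma in any comparison, against 1 at an unadjusted p under 0.05 in HFD against ND and 0 in the other comparisons. Of all genes, 10.9% were called in HFD against ND, 0.00732% in sHFD against ND and 34.2% in HFD against sHFD. At an unadjusted p under 0.05 stood 29.8%, 7.36% and 45.6% of all genes. Col23a1 was 54.1, 44.4 and 42.8 TPM under ND, 25.6, 43.3 and 37.7 TPM under sHFD and 34.6, 38.4 and 61.5 TPM under HFD, with sHFD replicate 1 the lowest and HFD replicate 3 the highest. Col13a1, found at neuromuscular junctions and other adhesion sites, was 19.4, 18.0 and 23.3 TPM under ND, 14.4, 13.6 and 13.1 TPM under sHFD and 8.18, 8.96 and 21.2 TPM under HFD. HFD replicates 1 and 2 were the lowest and replicate 3 lay within ND. The difference was not called with all libraries (log2 -0.74, SE 0.28, limma adjusted p = 0.0995) and was without HFD replicate 3 (adjusted p = 0.00698). Col25a1 was 6.45 ± 1.86 TPM in ND, 4.90 ± 1.62 TPM in sHFD and 4.86 ± 0.561 TPM in HFD (SD, n = 3 each).

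Whole groups of libraries separated for some members. Of the 38 collagens tested, 10 (26.3%) lay below all ND libraries in sHFD, where 4.9% of all genes did, and 0 lay above them, where 4.5% did. In HFD against ND, 8 (21.1%) lay below all ND libraries, where 22.9% of all genes did, and 0 above, where 5% did. In HFD against sHFD, 9 (23.7%) lay above and 3 (7.89%) below, where 16.6% and 34.7% of all genes did. In sHFD the 12 cardiomyocyte markers had a median log2 difference from ND of 0.49 and the fibroblast markers one of -0.21. With TPM, a larger share of one set of transcripts lowers the share of others, and its part in these counts was not tested.

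The genes that make, fold and crosslink collagen were counted in the same way. Of 22 genes of chain hydroxylation, folding and export, 1 fell in HFD against ND, Colgalt2, a collagen galactosyltransferase (log2 -0.90, SE 0.20, limma adjusted p = 0.0195), and 0 rose, where 10.9% of all genes were called. Its level was 6.45, 9.81 and 10.03 TPM in ND against 3.90, 4.39 and 4.20 TPM in HFD. In 9 of the 22 (40.9%) all HFD libraries lay below all ND libraries, where 22.9% of all genes did. Of the 22 differences 15 were negative, but the list median was -0.14, against -0.14 over all genes. Colgalt2 also fell against sHFD, where P3h2, a prolyl 3-hydroxylase, rose (log2 0.62, limma adjusted p = 0.0347). That is 9.09% of the list called in HFD against sHFD, where 34.2% of all genes were (23.9% lower and 10.3% higher). The next smallest p in HFD against ND were those of P3h3, of the same family, and Plod2, a lysyl hydroxylase, neither called (adjusted p = 0.0635 and 0.129). Of 14 measured genes of propeptide removal and crosslinking, 0 were called by limma in HFD against ND, where 10.9% of all genes were. At an unadjusted p under 0.05 stood 4 of the 14, against 29.8% of all genes. The smallest p were those of the lysyl oxidase homologues Loxl1 and Loxl3 and the protease Tll2 (adjusted p = 0.0615, 0.154 and 0.0897). Tll2 and Adamts14, a procollagen protease, fell in HFD against sHFD (limma adjusted p = 0.0339 and 0.0285), which is 14.3% of the list, where 23.9% of all genes fell.

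Of 12 collagen receptors and binding partners, 11 were tested and 3 (27.3%) fell in HFD against ND, where 9.59% of all genes fell. Itga11, the alpha-11 subunit of a fibrillar collagen receptor of fibroblasts, was 4.28, 2.41 and 3.60 TPM in ND, against 0.77, 0.58 and 1.84 TPM in HFD (log2 -1.13, SE 0.26, limma adjusted p = 0.0203). Itga2, the alpha-2 subunit of another collagen receptor, fell with an adjusted p of 0.0497 in limma, and Lair1, an inhibitory collagen receptor of leukocytes, with one of 0.0243. Against sHFD, Itga2, Lair1 and the collagen-binding kinases Ddr1 and Ddr2 fell in HFD (36.4% of the list, against 23.9% of all genes) and 0 rose. Of 15 laminin, nidogen and proteoglycan partners of type IV collagen, 14 were tested. Nid2, which bridges laminin and type IV collagen, rose in HFD against sHFD (log2 0.45, SE 0.16, limma adjusted p = 0.0445), where 10.3% of all genes rose. In HFD against ND 1 of the 14 rose (7.14%, against 1.28% of all genes), a gene not named here. In both comparisons 0 of the 14 fell. Lama2, the main laminin alpha chain of striated muscle, was not called in HFD against ND (adjusted p = 0.428), nor was Nid2 (0.129).

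Of 17 measured regulators of collagen transcription, Srf rose and Meox1, Tgfb3 and Mrtfa fell in HFD against ND, which is 23.5% called, against 10.9% of all genes. Meox1, a homeobox factor of activated fibroblasts and other mesenchyme, was 27.1, 56.9 and 53.9 TPM under ND, 58.1, 69.5 and 58.1 TPM under sHFD and 9.43, 11.6 and 11.5 TPM under HFD. The HFD libraries were below all others (log2 -1.92, SE 0.24, limma adjusted p = 0.00258). Tgfb3, a ligand of the TGF-beta family that induces collagen genes, was 57.0, 56.6 and 62.5 TPM in ND, against 31.8, 32.2 and 44.8 TPM in HFD (log2 -0.70, SE 0.18, limma adjusted p = 0.0282). Mrtfa, a cofactor of the serum response factor, fell by 0.71 on the log2 scale (limma adjusted p = 0.0368), and Srf itself rose by 0.55 (adjusted p = 0.0333). In HFD against sHFD, the TGF-beta receptors Tgfbr1 and Tgfbr2 and the inhibitor Smad7 rose, while Tgfb3, Smad3, Meox1 and Mrtfa fell. That is 41.2% called, against 34.2% of all genes.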

How the data were processed

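RNA-seq of cardiomyocytes isolated at birth gave 9 libraries, 3 per maternal diet. The authors deposited 1 table of TPM for 18738 genes. The submitters' processing notes name RSEM 1.3.1 and GRCm38 without a role, and mRNA was isolated before library construction, per the labels' protocols. The aligner, annotation and strand setting were not given in the sources used here. TPM keeps no counts, so depth and precision are unknown. Columns were matched by name: CON was read as ND, MID as sHFD and HIGH as HFD, each with its number.

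Members were taken by symbol and matched to RefSeq (GRCm38.p6) by Entrez identifier, 44 of 44. Expression was log2(TPM + 1) without further scaling, which understates changes of low genes. limma 3.58.1 under R 4.3.3 fitted the 3 diets to all 9 libraries (6 residual degrees of freedom, intensity trend, two-sided, Benjamini-Hochberg over the 13655 genes averaging 1 TPM or more). The script was tested on simulated data. Positions and gene order came from RefSeq, and exons and the 5′ overlap from GENCODE M21. Values in every library are given for members called in any comparison, for the 2 most abundant of the fibrillar, basement membrane, type VI and cartilage classes and the most abundant of each other class. Further members were added after their values were seen. Pathway lists are described by counts and the 3 members with the smallest p in HFD against ND. Members and lists were chosen with earlier results of these data known. Alternatives changed the pseudocount, filter, scaling, variance trend, libraries and a replicate block. Some genes of the lists are not reported here.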

Additional observations from a re-analysis of the deposited data

How the results depend on the processing

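In HFD against ND, the collagens called, 4 with all libraries, numbered 1 with no filter on low values, 2 under quantile normalization and 1 when the 2 diets were fitted alone, and 0 to 9 with 1 library left out. All genes called went from 1484 to 763 with no filter, 456 with 2 diets and 31 to 3837 with 1 library left out. In HFD against sHFD, 4 collagens became 8 under median-ratio scaling, 7 under quantile normalization and 2 to 9 with 1 library left out, and all genes, 4665, ran from 2693 to 5461 with 1 left out. In sHFD against ND, collagens ran from 0 to 4 with 1 left out, the 4 being without ND replicate 2. All genes, 1 as reported, were 0 with log2(TPM + 0.1), with no filter, with a mean of at least 5 TPM and with the replicate block, 2 with 2 diets alone, and 0 to 358 with 1 left out. Without ND replicate 1 and HFD replicate 3, chosen after seeing the data, collagens called numbered 10, 0 and 10 and all genes 3995, 0 and 5301, in HFD against ND, sHFD against ND and HFD against sHFD. Under median-ratio scaling the summed collagen level was 14467 TPM in ND, 11900.1 TPM in sHFD and 15148 TPM in HFD, against 14871, 12482 and 14061 TPM. With the replicate number as a block, 4, 0 and 4 collagens and 1686, 0 and 4722 genes were called. Same-numbered libraries correlated between -0.29 and 0.41 in their deviations from the diet means, 4 of 9 such pairs exceeded 0.1, and 4 of 9 libraries correlated best with their own number, so the numbers were not taken as pairs. For the 16 members chosen by the naming rule, fits were tallied over all their comparisons and settings. In 0 fits was a direction reversed where that fit or the main one gave a call. Changes of sign without a call in either were not counted. In other settings 9 fits lost a call, and with libraries left out 23 lost and 13 gained one. Members named beyond that rule are not in this tally. The cause of these shifts was not tested.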
